A study of Bos taurus with 4 samples.

Results

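The ion channels described here are the library clones whose array annotation gave exactly 1 gene symbol, and whose symbol begins with Cacn, Scn, Kcn, Hcn, Chrn, P2rx or Ryr or names an Itpr or Trp channel. They were picked by symbol and not by their values, although the set was chosen with earlier results of these data known. They came to 189 clones of 108 genes among the 35964 distinct library clones of the array. Of these, 187 clones of 107 genes had enough signal to be tested; the Kcnc4 clone AI835132 and the only Kcnk4 clone, AI854564, lacked a spot on too many arrays. The tested clones divided by gene name into 35 calcium channel clones (Cacn), 18 sodium channel clones (Scn), 88 potassium channel clones (Kcn), 17 receptor channel clones (Chrn and P2rx), 5 calcium release channel clones (Itpr and Ryr) and 24 Trp and Hcn clones.

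Voltage-gated channels open when the membrane depolarises: sodium channels carry the upstroke of the action potential, calcium channels admit the calcium that triggers secretion, and potassium channels return the membrane to rest. Receptor channels open on binding acetylcholine (the nicotinic receptors) or ATP (the P2X receptors), while Itpr and Ryr channels release calcium from internal stores. In the chromaffin cell of the adrenal medulla, acetylcholine from the splanchnic nerve opens nicotinic receptors, the cell fires, and calcium entry releases catecholamines. PACAP is a neuropeptide of the same nerve and acts through a G protein-coupled receptor.

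Bovine chromaffin cells given PACAP in culture (100 ng/ml, 6 h, 37 C) were set against control chromaffin cells on 4 arrays, which the labels call biological repeats without saying whether they came from separate animals; if they did not, the p-values measure only the spread between these samples, which may be technical. Each array held PACAP RNA in the red (Cy5) channel and control RNA of the same repeat in the green (Cy3) channel, and no dyes were swapped, so a dye effect and the treatment cannot be told apart. The array carried mouse cDNA clones, so bovine RNA was read by mouse sequence, and the tissue entry of the labels reads brain although their cell type entry reads chromaffin cells. Of 15 listed chromaffin marker genes 9 had clones, and 11 of their 14 clones (78.6%) had control signal above background on at least 3 arrays, beside 58.9% of all clones. The lists for other cell types ran from 42.9% (endothelial) to 88.9% (leukocyte), with fibroblast at 77.3%, so this measure does not tell chromaffin cells from others. Repeat 4 stood apart. Its median control intensity was 548.0, against 129.4 to 306.4 on the other arrays, and over the 171 ion channel clones measured on all 4 arrays its ratios correlated with those of the others at Pearson's r of -0.19 to -0.05, while repeats 1 to 3 correlated with each other at 0.14 to 0.35. By Spearman's rho the ranges were -0.16 to 0.06 with repeat 4 and 0.16 to 0.33 among repeats 1 to 3. Over all clones measured on 4 arrays, Pearson's r was -0.125 to -0.0023 with repeat 4 and 0.22 to 0.37 among the others. These correlations are a description, since clones of an array share its labelling and scan.

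No ion channel clone passed the test. Each value below is a log2 ratio of PACAP over control after an intensity-dependent correction within each array, so 0 is the trend of all spots of like brightness. In limma's moderated test with Benjamini-Hochberg adjustment over all clones, 0 of the 187 had an adjusted p under 0.05, beside 0.0% of all 35112 clones tested, and the lowest adjusted p of an ion channel clone was 0.454. Every adjusted p below comes from this test. At an unadjusted p under 0.05, 7 were higher (3.74%, beside 3.92% of all clones) and 14 were lower (7.49%, beside 6.46% of all clones). Of the 171 measured on every array, 15 lay above 0 on each of 4 arrays (8.77%, beside 10.1% of all clones) and 16 lay below 0 on each (9.36%, beside 8.71% of all clones). The mean was below 0 for 92 of 187 clones, or 49.2%, beside 51.4% of all clones. Each of these shares lay within 3 percentage points of that of all clones. Without repeat 4, 12 of 183 ion channel clones were higher (beside 4.91% of all clones) and 22 were lower (beside 9.50% of all clones) at an unadjusted p under 0.05, and again 0 had an adjusted p under 0.05. In such bulk samples, fewer cells of a type and less RNA per cell cannot be told apart.

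No class of channel stood clear of 0 on every array. The median log2 ratio was 0.03 for the calcium channel clones, 0.02 for sodium, -0.01 for potassium, -0.23 for receptor, 0.29 for calcium release and 0.11 for Trp and Hcn clones, beside 0.01 for all ion channel clones and -0.01 for all clones tested. The calcium channel median was 0.04, 0.29, -0.06 and -0.21 on repeats 1 to 4. The sodium channel median was -0.17, 0.13, 0.23 and 0.04 on the same arrays. The potassium channel median, which rests on the most clones, was 0.07, -0.07, -0.13 and -0.02. Each of these 3 classes thus lay on either side of 0, depending on the repeat. Without repeat 4 the medians were 0.07 for calcium, 0.14 for sodium, -0.07 for potassium, -0.31 for receptor, 0.31 for calcium release and -0.10 for Trp and Hcn clones, so that the sign of the last turned.

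The receptor channel median was -0.20, -0.47 and -0.13 on repeats 1 to 3 and 0.17 on repeat 4. The calcium release median was -0.08 on repeat 1 and 0.31, 0.54 and 0.39 on repeats 2 to 4, from 5 clones. The mean difference in median was larger than its SD over arrays in 3 of the 15 pairs of classes. It kept its sign on all 4 arrays in 2 pairs, each of them with the calcium release class: calcium release lay above receptor by a mean of 0.45 ± 0.32 (SD, n = 4) and above sodium by 0.23 ± 0.12 (SD, n = 4). None of the 5 calcium release clones had control signal above background on at least 3 arrays. Without the PACAP channel none would have entered the test, so nothing is read from the place of this class above the others. Calcium channels exceeded receptor channels by a mean of 0.17 ± 0.47 (SD, n = 4), on 3 of 4 arrays. Sodium channels exceeded potassium channels by 0.10 ± 0.25 (SD, n = 4), also on 3 of 4 arrays. No p is given for these medians, because the clones of a class are not replicates and the classes were chosen with results of these data known.

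**Figure D1:**
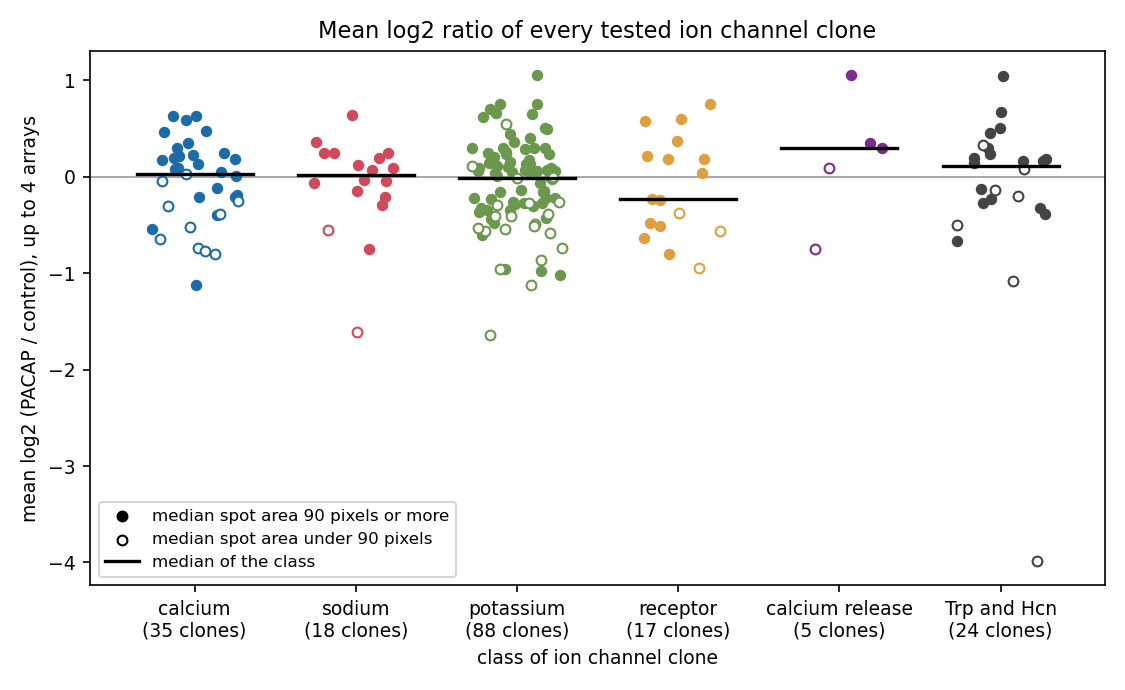
Mean log2 ratio of PACAP over control (vertical axis) of each of the 187 tested ion channel clones, by class (horizontal axis), each point 1 clone averaged over up to 4 arrays and each bar the class median. Open points have a median spot area under 90 pixels; 39 of these 45 lie below 0, against 53 of the 142 filled points.

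**Figure D2:**
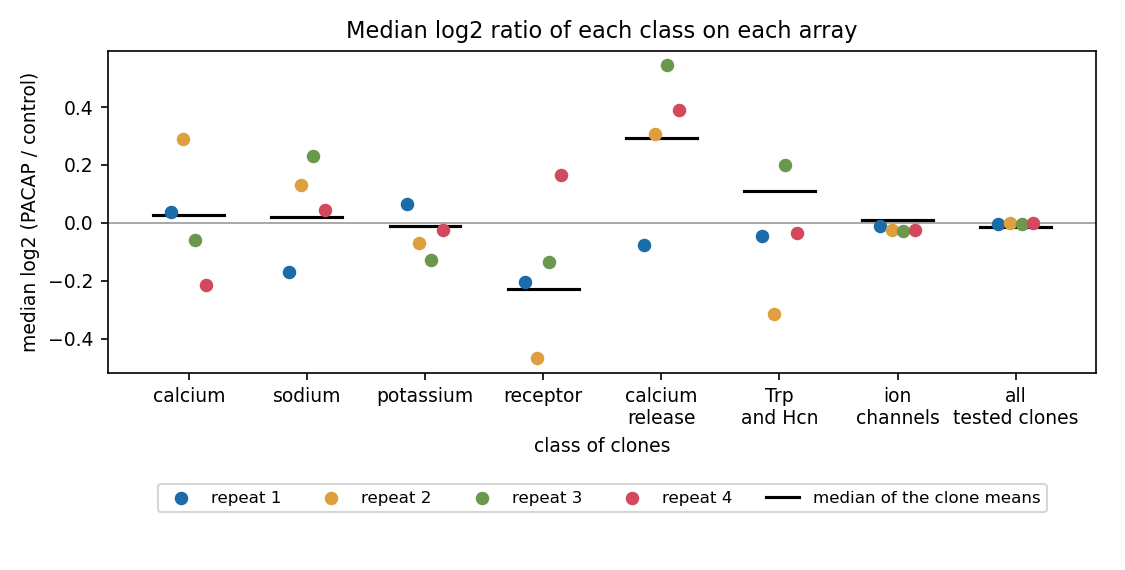
Median log2 ratio of each class on each array (points, coloured by repeat) with the median of the clone means (bar). The points of the calcium, sodium, potassium and receptor classes lie on either side of 0, and the largest class, potassium, stays between -0.13 and 0.07.

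Clones with small spots had the lower ratios. Area is the number of pixels the scanner software gave the spot, taken as the median over the 4 arrays with a missing spot counted as 0. Of the 17 ion channel clones under 60 pixels, 15 had a mean below 0, and so had 24 of 28 from 60 up to 90 pixels. From 90 up to 110 pixels 18 of 54 were below 0, and at 110 pixels or more 35 of 88 were. All clones of the array showed the same order, with 93.7%, 77.3%, 48.6% and 38.2% below 0 in these bands. Area and mean log2 ratio correlated at Pearson's r of 0.52 (Spearman's rho 0.41) over the 187 ion channel clones and at 0.56 (rho 0.41) over all tested clones, a description across clones that share arrays. The difference depended on the processing. With background subtracted a second time before the intensity-dependent correction, 24 of the 45 ion channel clones under 90 pixels and 91 of the 142 larger ones lay below 0. Of all clones, 57.4% and 55.4% did. The deposited ratios subtract background again without that correction, and had 40 of 45 and 60 of 142 below 0, beside 89.8% and 48.7% of all clones. In both, the control value sat at the floor in 58.2%, 83.1%, 81.5% and 7.45% of library spots on repeats 1 to 4. In the processing used here, without repeat 4, 40 of 44 smaller and 54 of 139 larger ion channel clones lay below 0. What sets the area of a spot, and its part in the ratios, was not tested.

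**Figure D3:**
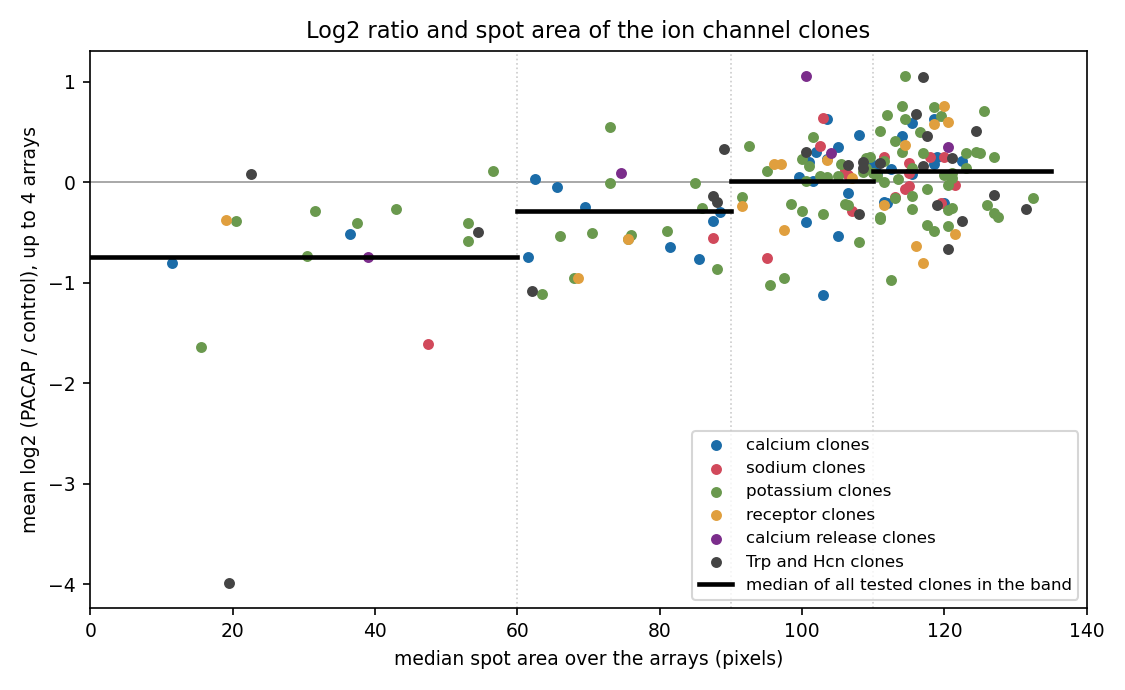
Mean log2 ratio (vertical axis) against median spot area in pixels (horizontal axis) for the 187 tested ion channel clones, coloured by class, with the median of all tested clones in each area band as black bars. The bars rise from -0.74 under 60 pixels to 0.11 at 110 pixels or more, and 15 of the 17 points under 60 pixels lie below 0.

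The split held within the classes. Under 90 pixels the mean was below 0 for 9 of 10 calcium, 2 of 2 sodium, 19 of 21 potassium, 3 of 3 receptor, 1 of 2 calcium release and 5 of 7 Trp and Hcn clones. At 90 pixels or more it was below 0 for 7 of 25 calcium, 7 of 16 sodium, 27 of 67 potassium, 6 of 14 receptor, 0 of 3 calcium release and 6 of 17 Trp and Hcn clones. With the smaller spots left out, an alternative chosen after the values by area had been seen, the class medians became 0.17 for calcium, 0.08 for sodium, 0.06 for potassium, 0.11 for receptor, 0.35 for calcium release and 0.17 for Trp and Hcn clones. The receptor median moved from -0.23 to 0.11 in this way, and the median of all clones became 0.07.

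Clones of the same gene differed by area too. In 41 pairs of clones of the same ion channel gene whose areas differed by over 20 pixels, the clone with the smaller spot had the lower mean in 34, or 82.9%, beside 76.0% of such pairs over all genes. Where areas differed by over 40 pixels it was the lower in 17 of 18 pairs, beside 87.5% over all genes. Over all clone pairs of a gene, 71 of 127 had means of the same sign, or 55.9%, beside 54.9% over all genes. Of the 50 ion channel genes with at least 2 tested clones, 9 had every clone above 0, 13 had every clone below 0 and 28 had clones on either side. None of the 22 genes whose clones shared a sign kept it for every clone under each alternative processing that was run. Taken singly, 59 of the 187 clones did not change sign under any alternative that tested them. The share over all genes was not computed, so nothing particular to these genes is read from this.

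Trpm7, a magnesium- and calcium-permeable channel fused to a kinase, shows the spread most plainly. Its clone C76753 read -2.85, -5.54 and -3.57 on repeats 1 to 3 and had no spot on repeat 4, a mean of -3.98 ± 1.39 (SD, n = 3; adjusted p = 0.454), from a median area of 19.5 pixels. The clone C76825 read -1.44, 0.82, -1.35 and -0.03, a mean of -0.50 at 54.5 pixels, and C87660 read -0.09, -0.96, 0.95 and 0.86, a mean of 0.19 at 111 pixels. The largest spot, AW536786, read 0.43, 0.49, 0.80 and 0.32, a mean of 0.51 ± 0.20 (SD, n = 4; adjusted p = 0.486), at 124.5 pixels. The mean was higher the larger the spot, and the values of the smallest and the largest spot did not overlap. At C76753 the control intensity was 419.4, 1709.2 and 398.1 on the arrays with a spot and the PACAP intensity 68.7, 58.1 and 23.9.

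**Figure D4:**
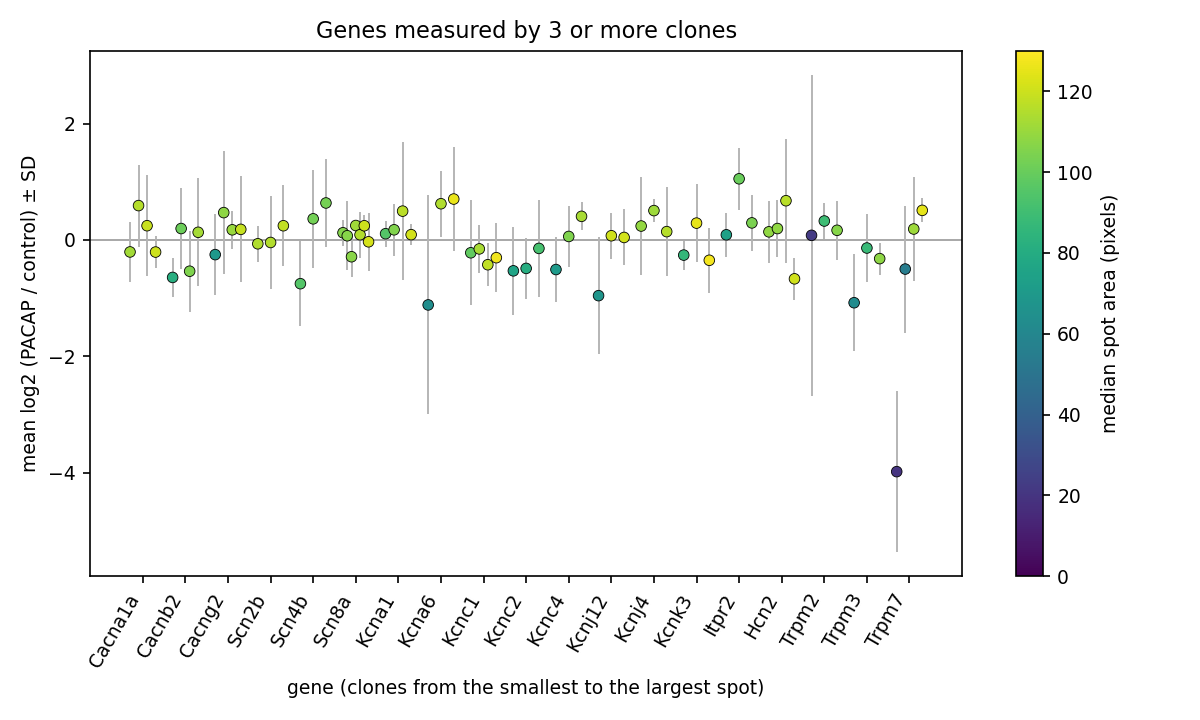
Mean log2 ratio ± SD over arrays (vertical axis) of every clone of the genes measured by 3 or more clones (horizontal axis), ordered within a gene from the smallest to the largest spot and coloured by median area in pixels. The Scn8a clones lie between -0.29 and 0.25, while those of Trpm7 run from -3.98 to 0.51.

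Among calcium channels, the pore-forming Cacna1 subunits, which set the type of calcium current, gave 7 clones above 0 and 7 below, or 3 to 5 above 0 under the other scalings (the deposited ratios, loess by print tip, equal spread of arrays, or centring on medians). Cacna1a, the pore of the P/Q-type channel, had 4 clones with means of -0.21, -0.21, 0.24 and 0.59, all from spots of 112 to 120 pixels. Cacna1b, the pore of the N-type channel, had 1 clone with a mean of -0.30 ± 0.53 (SD, n = 4). Cacna1d, an L-type pore, had a clone at 0.03 ± 1.21 (SD, n = 4) and the clone C79579, which read -1.26, -0.41, -0.78 and -0.61. That clone was below 0 on every array, with a mean of -0.77 ± 0.36 (SD, n = 4; adjusted p = 0.454) at 85.5 pixels. Its mean became 0.09 when background was subtracted a second time before the intensity-dependent correction, and was -0.34 in the deposited ratios. Cacna1h, a T-type pore, had clones at -1.13 and 0.09; the first of them, AI834839, read 0.70, -1.96, -3.48 and 0.24, so the lower mean came from repeats 2 and 3.

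The accessory calcium channel subunits, which bring the pore to the membrane and tune its gating, were as mixed. Cacnb2, a cytoplasmic beta subunit, had 4 clones at -0.65, -0.54, 0.13 and 0.20, and the lowest, BE988259, read -0.79, -0.98, -0.61 and -0.20 (adjusted p = 0.459) from spots of 81.5 pixels. Cacnb4 had 1 clone at -0.74 ± 0.78 (SD, n = 4) and 61.5 pixels, and Cacnb1 had 1 at 0.30 ± 0.45 (SD, n = 4) and 102 pixels. Of the 6 Cacnb clones 3 lay above 0, and 0 did with background subtracted a second time. The alpha2delta subunits, which promote surface expression of the pore, gave 4 of 5 clones above 0, or 3 to 4 under the other scalings. The highest of these was Cacna2d4, at -0.08, 0.76, 1.19 and 0.63 (adjusted p = 0.480), with repeat 1 apart from the others. The Cacng family, several members of which also handle AMPA receptors, had 5 clones above and 5 below 0. Its Cacng4 clone BE947415 read -0.90, -0.93 and -0.57 from spots of 11.5 pixels, without control signal above background on any array with a spot, so its mean of -0.80 (adjusted p = 0.454) has no bound that can be given. The other Cacng4 clone had a mean of 0.35 at 105 pixels. In the Cacng8 clone AW061067, at a mean of 0.63, the clone title names fatty acid desaturase 2 in place of the channel.

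The sodium channels had the highest share of clones with control signal above background on at least 3 arrays. It was 14 of 18, or 77.8%, beside 51.9% of all ion channel clones and 58.9% of all clones. Their median SD over arrays, 0.54, was near that of all clones, 0.55. Scn8a, a pore-forming subunit of neurons, had 7 clones with means from -0.29 to 0.25, all from spots of 106 to 121.5 pixels. Its clone AI853902 read 0.15, 0.30, 0.29 and 0.25, a mean of 0.25 with an SD of 0.07, and was above 0 on every array, though at an adjusted p of 0.681.

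Scn9a, a pore-forming subunit of peripheral neurons and neuroendocrine cells, had 1 clone at -0.45, -1.16, -1.06 and 0.46 (adjusted p = 0.538), with repeat 4 on the other side of 0. The beta subunits, which anchor the pore and adjust its gating, gave the lowest values of the class. They had 3 of 7 clones above 0, or 3 to 5 under the other scalings and 2 with background subtracted a second time. The Scn3b clone AW049620 read -0.80, -2.62, -2.75 and -0.25, below 0 on each array, with a mean of -1.61 ± 1.27 (SD, n = 4; adjusted p = 0.454) at 47.5 pixels. Scn4b had clones at -0.75, 0.36 and 0.64 from spots of 95, 102.5 and 103 pixels; the first, AI847519, read -1.32, -1.41, -0.38 and 0.10 (adjusted p = 0.474). Scn2b had clones at -0.07, -0.04 and 0.24, the last of which is titled as a protein like myelin P0. In the bovine gene table (RefSeq, ARS-UCD2.0) Scn2b and Scn4b are neighbours with 0 coding genes between them.

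Potassium channels form the largest class, and 46 of their 88 clones lay below 0. Among the Shaker-type channels (Kcna), which open quickly on depolarisation, 7 of 10 clones lay above 0, or 5 to 7 under the other scalings. With background subtracted a second time before the intensity-dependent correction, 1 of the 10 Kcna clones lay above 0 and 9 below. Kcna1 had 4 clones at 0.09, 0.11, 0.17 and 0.50, yet each of them lay below 0 on repeat 4. Kcna6 had a clone at -1.12 with 63.5 pixels, which read -0.33, -3.90, -0.50 and 0.26, and clones at 0.62 and 0.70 with 114.5 and 125.5 pixels. Kcna6, Kcna1 and Kcna5 are neighbours in the bovine gene table, and the Kcna5 clone had a mean of -0.22. Kcna2, next to Kcna3 in that table, was represented by a clone titled toll-like receptor 3.

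In the Kcnb, Kcnc and Kcnd families, which carry delayed and transient potassium currents, 11 of 17 clones lay below 0, and under the other scalings 5 to 6 of the 17 lay above it. Kcnc1, a fast channel of rapidly firing cells, had 4 clones at -0.43, -0.31, -0.22 and -0.15, none with an unadjusted p under 0.05 and 1 of them, AI847230, titled as another protein. Kcnb2 had clones on either side: BE946051 read -1.43, -2.99 and -0.50 from spots of 15.5 pixels (adjusted p = 0.454), and BE947682 read 0.17, 0.43, 1.82 and 0.58 from spots of 118.5 pixels (adjusted p = 0.475). The latter was above 0 on every array with repeat 3 the highest, and its mean of 0.75 was 0.39 without that repeat. It was not among the clones with both channels above background on at least 3 arrays.

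Kcnd3, a pore of the transient current, had a bright clone, AW546923, at 0.55, 0.38, 0.64 and 1.05, with a mean of 0.66 ± 0.29 (SD, n = 4; adjusted p = 0.454). It was above 0 on every array, but its mean was 1.53 with each array centred on its median and -1.66 in the authors' deposited log2 ratios after centring, where the median of all clones was -0.31, so its direction depends on the scaling. The clone of Kcnd3os, an RNA antisense to Kcnd3 that is no channel, read -0.86, -0.70, -0.61 and -0.23 (adjusted p = 0.467), and its mean of -0.60 became 1.00 in the centred deposited ratios. Sense and antisense RNA cannot be told apart in these data.

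The calcium-activated potassium channels shape the interval between chromaffin cell spikes. Kcnma1, the pore of the large-conductance BK channel, had clones at -0.01 ± 0.23 (SD, n = 4) and -0.86 ± 1.06 (SD, n = 4). The second of these, AI851759, read -0.51, -2.31, -0.83 and 0.21 at 88 pixels (adjusted p = 0.481). Its beta subunit Kcnmb1 had 1 clone at 0.76, 0.12, 2.06 and -0.29, a mean of 0.66 that rests on repeat 3 the most. The small-conductance SK channels gave 0.16 and -0.48 for the clones of Kcnn2, -0.73 for Kcnn3 from spots of 30.5 pixels with no control signal above background, and 0.25 for Kcnn1. Kcnu1, a pH-gated relative of BK known from sperm, had the clone BE949298 at -1.24, -0.97 and -0.86 on repeats 1 to 3, a mean of -1.02 ± 0.19 (SD, n = 3; adjusted p = 0.454), and a second clone at 0.14.

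The inward rectifiers (Kcnj), which hold the resting potential, gave 9 of 14 clones above 0, or 5 to 7 under the other scalings. The Kcnj clone of smallest p, AI854293 (annotated Kcnj12), read -0.96, -1.73, -1.59 and 0.46, but its title names a beta-amyloid binding protein; the other Kcnj12 clones had means of 0.07 and 0.04, and the first of these, AW549236, is also titled as another protein. All 3 clones of Kcnj4 lay above 0, at 0.14, 0.24 and 0.50, and the highest is titled coatomer subunit gamma 1. Leak channels (Kcnk), open at rest, gave 4 of 11 clones above 0, or 4 to 8 under the other scalings, so neither family has a settled direction. Kcnk1 had AW557177 at 0.38, 1.37, 0.98 and 0.30, above 0 on each array with a mean of 0.76 ± 0.51 (SD, n = 4; adjusted p = 0.454) at 114 pixels, and AI842576 at a mean of -0.57 with 75.5 pixels. Kcnk3, an acid-sensitive leak channel of chromaffin cells, had clones at -0.35, -0.26 and 0.29, the lowest of them titled as a glycosyltransferase. Accessory proteins of potassium channels (Kcnab, Kcne, Kcnip and Kcnmb) gave 6 of 10 clones above 0, or 2 to 6 under the other scalings, the highest being Kcnab1 at 1.02, -0.26, 3.30 and 0.16, a mean of 1.05 ± 1.59 (SD, n = 4).

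Of the receptor channels, the nicotinic subunits that make the chromaffin cell's synaptic receptor are Chrna3, Chrna5 and Chrnb4, which lie next to each other in the bovine gene table with Chrna3 in the middle. Chrnb4 had 1 clone at 0.54, -0.53, 1.70 and 0.58, a mean of 0.57 ± 0.91 (SD, n = 4; adjusted p = 0.559). Chrna5 had 1 clone at -0.43, 0.77, 1.38 and -0.98, a mean of 0.18 ± 1.08 (SD, n = 4). The Chrna3 clone AW125300 read -0.91, -0.47, 0.45 and 1.09, a mean of 0.04 ± 0.90 (SD, n = 4). All 3 subunits crossed 0 between arrays, so no direction can be read for this receptor. A brighter clone annotated Chrna3, BE944692, read -0.92, -0.09, -0.78 and -0.26, below 0 on every array (mean -0.51, adjusted p = 0.506), but its title names the alpha-4 subunit, and its mean was 0.25 with each array centred on its median.

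The remaining nicotinic subunits gave 5 of 6 clones below 0 in this processing, and over all nicotinic clones the other scalings put 2 to 4 of 10 above 0. The Chrna4 clone BE993087 read -0.59, -0.62, -2.15 and -0.44, below 0 on each array with repeat 3 the lowest, a mean of -0.95 ± 0.80 (SD, n = 4; adjusted p = 0.454) from spots of 68.5 pixels. A second Chrna4 clone had a mean of 0.18 at 96 pixels. Chrnb3, a neighbour of Chrna6 in the bovine gene table, read 0.00, -1.31, -0.57 and -0.68 (adjusted p = 0.480) at 116 pixels, and the Chrna6 clone had a mean of -0.37 at 19 pixels. Chrnb2 had clones at -0.24 and -0.23.

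The P2X receptors, ATP-gated cation channels, gave 4 of 7 clones above 0, and 4 under each of the other scalings too. Among receptor clones of 90 pixels or more they held the smallest p in either direction. P2rx2 (BE948568) read 0.38, 1.24, 1.10 and 0.30, above 0 on each array with repeats 2 and 3 the higher, a mean of 0.76 ± 0.48 (SD, n = 4; adjusted p = 0.454) at 120 pixels. P2rx3 (AW455488) read 0.49, 0.77, 0.95 and 0.20, a mean of 0.60 ± 0.33 (SD, n = 4; adjusted p = 0.472) at 120.5 pixels. P2rx4 (AW555605) read -0.37, -1.08, -1.55 and -0.20, below 0 on each array, a mean of -0.80 ± 0.63 (SD, n = 4; adjusted p = 0.454) at 117 pixels. The P2rx4 clone had control signal above background on all 4 arrays, P2rx2 on 3 and P2rx3 on 1. The mean of P2rx2 was -1.64 when background was subtracted a second time before the intensity-dependent correction, and 0.18 in the deposited ratios. That of P2rx4 ranged from -2.66 to -0.40 over the alternatives, and that of P2rx3 from 0.04 to 2.25 over the 14 that tested it. P2rx7, next to P2rx4 in the bovine gene table, had a mean of -0.56 ± 0.75 (SD, n = 4) at 75.5 pixels, and P2rx5, P2rx1 and P2rx6 had means of -0.48, 0.37 and 0.22.

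The calcium release class had clones of 3 genes and was the dimmest: 0 of 5 clones had control signal above background on at least 3 arrays, against 5 of 17 receptor and 18 of 35 calcium channel clones. Itpr2, an inositol trisphosphate receptor, had 3 clones with means of 0.09, 0.29 and 1.05. The highest, C86832, read 0.68, 1.69, 1.28 and 0.55, above 0 on every array (SD 0.53, n = 4; adjusted p = 0.454), the smallest p among the higher ion channel clones. Its control signal was above background on 1 array. Its mean was -0.07 when background was subtracted a second time before the intensity-dependent correction, and 1.03 in the deposited ratios. Ryr3 had a clone at 0.35 ± 0.37 (SD, n = 4), and Ryr2 one at -0.75 ± 0.57 (SD, n = 3) from spots of 39 pixels with no control signal above background.

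Trp and Hcn channels carry mixed cation currents, the former opened by lipids, heat or store depletion and the latter by hyperpolarisation and cyclic nucleotides. Hcn2 had 4 clones at -0.67, 0.14, 0.20 and 0.67 from spots of 108.5 to 120.5 pixels. Its lowest, AW049789, read -0.61, -1.11, -0.72 and -0.23, below 0 on each array (adjusted p = 0.455), and was 0.04 in the centred deposited ratios. Hcn3 and Hcn4 had means of -0.39 and -0.23. Trpc4, a receptor-operated channel, read 0.36, 1.36 and 1.40 on repeats 1 to 3 without a spot on repeat 4, a mean of 1.04 ± 0.59 (SD, n = 3; adjusted p = 0.454), and its control signal was above background on 2 arrays. Trpm3 had 3 clones below 0, at -1.08, -0.32 and -0.14; the lowest, AW048669, read -0.14, -1.40 and -1.70 at 62 pixels (adjusted p = 0.454). Trpm4, a calcium-activated channel, had a mean of 0.30 ± 0.53 (SD, n = 4), and Trpv4, an osmotically sensitive channel, had clones at 0.46 and 0.24. The Trpc4ap clones, whose gene encodes a partner of Trpc4 and no channel, had means of -0.13 and -0.27.

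**Figure D5:**
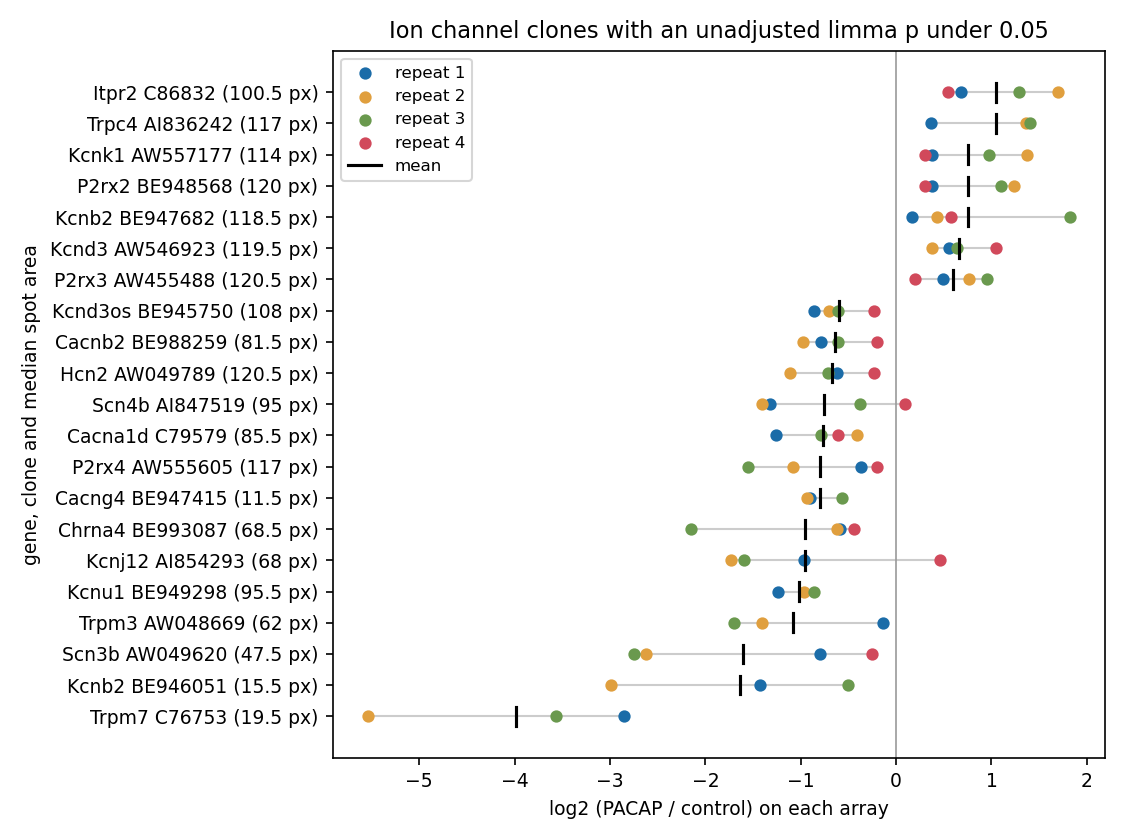
Log2 ratio on each array (horizontal axis; points coloured by repeat, bars the mean) of the 21 ion channel clones with an unadjusted limma p under 0.05, labelled by gene, clone and median spot area in pixels. The 7 higher clones have areas of 100.5 to 120.5 pixels, and 9 of the 14 lower ones are under 90 pixels.

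The 21 clones with an unadjusted p under 0.05 differed by area along with direction. All 7 higher clones came from spots of 100.5 pixels or more, whereas 9 of the 14 lower ones came from spots under 90 pixels. Over all clones of the array with an unadjusted p under 0.05, 1604 of the 2269 lower and 35 of the 1378 higher ones were under 90 pixels. Control signal was above background on at least 3 arrays for 10 of the 21 and on all 4 for 4 of them. The mean changed sign under at least 1 alternative in 6 of the 21, and came to 0 under an alternative in Cacng4 BE947415, Kcnu1 BE949298 and Trpm3 AW048669. Some alternatives did not test all 21. Of them 12 dropped out with both channels required above background, 11 under the quality limit and 7 without spots under 60 pixels. Leaving out repeat 1, 2 or 3 dropped 6 each.

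Of 38 genes chosen for their known part in chromaffin cell excitability, 25 had a tested clone here, and 42 clones in all. Their means were above 0 for 20 clones and below 0 for 22, with a median of -0.11, and at an unadjusted p under 0.05, 2 were higher (beside 3.92% of all clones) and 4 lower (beside 6.46%). Listed genes without such a clone, among them Cacna1c, Chrna7, Itpr1, Itpr3 and Ryr1, were not analysed here.

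Other genes of calcium handling and excitability were read from lists of 113 genes, of which 81 had 198 tested clones. Of these clones 105 lay above 0 and 93 below, 10 and 9 had an unadjusted p under 0.05 in those directions (beside 3.92% and 6.46% of all clones), and 0 passed the adjusted test. The list of calcium pumps, exchangers and store entry had 23 of 36 clones above 0. Its share below 0 was 36.1%, beside 51.4% of all clones. At an unadjusted p under 0.05 it held 2 of the 9 lower clones, Mcu AW046632 (mean -0.79) and Atp2a2 AU042390, and 6 of the 10 higher ones. Of the 6, 4 were clones of Atp2a2, the pump that returns calcium to the stores, which had 11 clones with 9 above 0 and a median of 0.51. Its clone AI854716 read 0.69, 1.22, 0.91 and 0.78, above 0 on every array (adjusted p = 0.454), at 136 pixels. Its clone AU042390 was below 0 on every array, with a mean of -0.61. The 11 Atp2a2 clones had median spot areas of 90.5 to 136 pixels. Of all clones of 90 pixels or more, 42.2% lay below 0. The direction of the clones of these lists under the alternatives was not examined. Glutamate, GABA, chloride and other channels gave 24 of 49 clones above 0, and the calcium sensors, kinases and phosphatase 39 of 73.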

How the data were processed

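RNA of 4 biological repeats was read on 4 two-colour arrays. Per the file headers, the deposited spot files hold intensity means for each channel, a calibration factor per array, a calibrated ratio, spot area in pixels and a quality score given as a fraction. Set against the pixel totals and backgrounds in the same files, the deposited intensity means already have the background subtracted and are floored near 1. The authors' deposited series table holds log2 ratios, which the spot files reproduce by a further background subtraction, a floor of 1 and the calibration factor, without centring. Scanner software versions and the build are not given in the sources used here. Clones were named from the platform annotation of the series table, joined to spots by plate position: 35695 of 35873 entries joined, and 22477 of 36096 library spots had 1 symbol, 1111 several and 12508 none. Titles of 12 ion channel clones name another gene or protein, and 89 name none. Bovine symbols were matched in the RefSeq table of ARS-UCD2.0 for 107 of 108 genes.

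Intensities were floored at 1, normalized within each array by global loess, and averaged over spots of a clone. Tested clones had red or green signal over 2 SDs of the background on 3 or more of the arrays; the test was limma 3.58.1 (R 4.3.3) on the mean against 0, 2-sided, with Benjamini-Hochberg adjustment over 35112 clones at 0.05. The script was tested on simulated data. The exact sign-flip test over 4 arrays cannot reach 0.05 and was not used. Members, classes, gene lists and the rule for named clones (per class, the 3 of smallest p in each direction, the brightest, genes with 2 or more clones, and a list of chromaffin cell genes) were chosen with earlier results of these data known. Not every gene with 2 or more clones was described in the text. The number of arrays limits the precision. Alternatives changed the background, normalization, filters, area and quality limits, the moderation and the arrays used.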

Additional observations from a re-analysis of the deposited data

Results flagged for a closer look

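Each of the 171 ion channel clones measured on 4 arrays, and the medians of the 6 classes and of all ion channel clones, were examined for 1 array standing far from the other 3, by the gap to its neighbour over the whole range against Dixon's 95% critical value. Of these 178 sets of values 5 passed it; for normally distributed values the critical value is set so that about 1 in 20 would. The Trpm2 clone AW045684 read 4.20 on repeat 4 against -1.54 to -0.91 on the others, from spots of 22.5 pixels, and its mean of 0.08 was -1.30 without that repeat. The Chrna4 clone BE993087 read -2.15 on repeat 3 against -0.62 to -0.44. The Cacna2d1 clone C77266 read 0.51 on repeat 1 against -0.76 to -0.56. The Scn8a clone BE986535 read 0.96 on repeat 2 against -0.31 to -0.16. The Trpv2 clone AI834917 read 0.050 on repeat 3 against -0.29 to -0.28. The arrays that stood apart were repeats 1, 2, 3 and 4, repeat 3 in 2 clones, and the causes were not tested.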

How the results depend on the processing

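The count of 0 ion channel clones with an adjusted p under 0.05 held under each alternative run except the authors' deposited log2 ratios, which called 4 (Scn3b AW049620, Cacna1d AW060789, Trpm7 C76753 and Trpm7 C76825, all lower) of 344 clones over the array, all 344 of them lower; trend and robust moderation called 3 clones over the array and 0 ion channel clones. The cause was not tested, but in the deposited ratios the red channel sat at the floor in 41.7% of the values of the 344 clones against 7.69% of all tested. The median of all ion channel clones stayed between -0.24 and 0.16. It was -0.10 with background subtracted a second time, -0.0099 with normexp and an offset of 50, -0.0079 with an offset of 50, -0.082 with median centring, -0.051 with print-tip loess, -0.026 with scaling between arrays, -0.24 with the deposited ratios, -0.038 with both channels required above background, 0.068 without spots under 60 pixels, 0.16 without spots of quality under 0.5, -0.00013 with the brightest clone of each gene, and, as alternatives added after seeing the data, 0.041 without clones titled as other genes or proteins and the Trpc4ap and Kcnd3os clones, 0.10 without clones under 90 pixels and 0.033 less the median of all clones of the same area band. With the deposited ratios the class medians were -0.34 for calcium, 0.20 for sodium, -0.28 for potassium, -0.65 for receptor, 0.97 for calcium release and -0.21 for Trp and Hcn clones, beside -0.31 for all clones. With background subtracted a second time the sodium median was -0.18 and the potassium median -0.10. The sodium median was -0.21 with the brightest clone of each gene, the potassium median 0.15 without spots of low quality, and the receptor median -0.51 (5 clones) with both channels above background and 0.11 without clones under 90 pixels. No calcium release clone was left with both channels above background. Leaving out each repeat in turn gave medians of -0.036 to 0.0051 for all ion channel clones, -0.12 to 0.07 for calcium, 0.03 to 0.14 for sodium, -0.07 to -0.0050 for potassium, -0.31 to -0.01 for receptor, 0.25 to 0.49 for calcium release and -0.10 to 0.090 for Trp and Hcn clones, the lowest of the last without repeat 4.

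Of the 21 clones with an unadjusted p under 0.05, 6 changed sign: Cacna1d C79579 (0.086), Itpr2 C86832 (-0.073) and P2rx2 BE948568 (-1.64) with background subtracted a second time, and Hcn2 AW049789 (0.043), Kcnd3 AW546923 (-1.66) and Kcnd3os BE945750 (1.00) in the deposited ratios. The causes were not tested. The planned exact sign-flip test was not run, since 4 arrays cannot bring it under 0.05. The test is paired by design, since each array's ratio sets the PACAP RNA against the control RNA of its own repeat. With 1 group of ratios there was no further pairing to use. With 4 arrays, spots near background in the control channel limit many clones: 43 of 187 had control signal above background on every array, against 162 for PACAP.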
